A study of Mus musculus with 4 samples.

Results

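A set of genes that mark hepatocytes around the central vein, or that answer Wnt signalling in the liver, were followed in whole mouse liver after viral delivery of Cre or of a control virus. The 10, of 30139 genes named on the array, were Glul, Oat, Slc1a2, Rhbg, Axin2, Lgr5, Tbx3, Rnf43, Znrf3 and Nkd1. They were chosen by name, through every probe that is not a control and carries that gene name on the array, which gave 15 of 39429 probes. Of these, 11 probes of 9 genes were bright enough to test, and Znrf3 was not.

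The livers came from female C57B/6 mice of 8 to 10 weeks, and every animal, controls included, was homozygous for a floxed allele of Trib1. AAV_Cre is an adeno-associated virus that carries Cre, which cuts out sequence between loxP sites, and these animals are described as liver-specific knockouts. AAV_Null is the control virus, and its animals are the wild-type group. Chow-fed animals were killed 1 week after injection, after a fast of 4 hours. Each of 4 Agilent 2-colour arrays held 1 RNA of each treatment, and AAV_Cre RNA carried Cy5 on the first pair of arrays (1 and 2) and Cy3 on the second (3 and 4). Each RNA was hybridised once. The labels used here do not give the promoter that drives Cre, the deleted part of Trib1, or whether an RNA came from 1 animal or a pool, so p-values measure only the spread between these samples.

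Endothelial cells of the central vein release Wnt ligands and R-spondins, which stabilise β-catenin in the nearest hepatocytes. There β-catenin with TCF factors turns on enzymes and carriers that capture ammonium as glutamine, and it also turns on feedback genes of the pathway itself. The enzyme set is a stable mark of the pericentral zone, while the feedback genes report on how strongly the pathway is signalling. In whole liver, fewer pericentral cells and less RNA per cell cannot be told apart.

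No gene of the set passed the test in either direction. The test was limma's moderated test of the log2 ratio of AAV_Cre over AAV_Null, with a dye effect, adjusted by Benjamini-Hochberg over 16081 genes at 0.05. It called 0 of the 9 tested members, where 2.76% of all genes were called, and 0 of their 11 probes, where 2.37% of all probes were. At an unadjusted p under 0.05 it held 2 of the 9 members, or 22.2%, against 22.6% of all genes. The members' median log2 ratio was -0.064, against -0.0026 over all genes, and members ranged from -0.38 for Rhbg to 0.42 for Oat. By size these 2 lay at percentiles 2.38 and 97.4 of all genes, as far out as some genes that were called, while the other 7 lay between -0.17 and 0.20. Only Rhbg and Oat had the same sign on all 4 arrays, and 23.6% of all genes did. For none of the 9 did the levels of the RNAs separate by treatment without overlap (0 of 9), as they did for 5.82% of all genes.

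**Figure D1:**
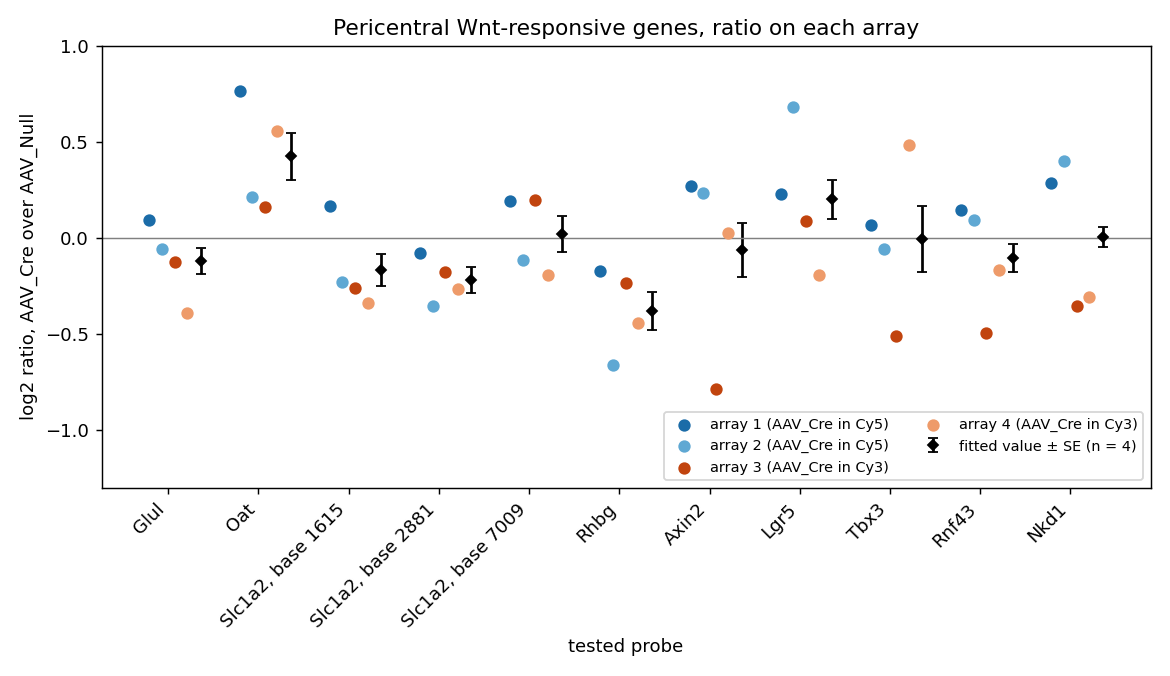
Log2 ratio of AAV_Cre over AAV_Null (vertical axis) for the 11 tested probes (horizontal axis), with 1 point per array coloured by array and dye, and the fitted value ± SE in black. All 4 points of Oat lie above 0 and all 4 of Rhbg below 0, while the points of Axin2, Tbx3, Rnf43 and Nkd1 lie on both sides.

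Every direction given here rests on the treatment labels, and AAV_Cre and AAV_Null stand for the RNA labelled so. The probe standing for Trib1 had log2 ratios of 0.64, 1.02, 1.09 and 1.01 on arrays 1 to 4, so the targeted gene was higher in RNA labelled AAV_Cre on every array (0.94 ± 0.079, SE, n = 4; limma adjusted p = 0.0210), which goes against the label if the deletion takes in that sequence. With any 1 array left out it lost the call, at 0.85 to 1.03, in fits that called 0 to 37 of all genes. A second RefSeq probe of Trib1 had 1.29 ± 0.11 and a probe of an Ensembl transcript -0.047 ± 0.049 (SE, n = 4). The sources used here do not say which part is floxed, and probes that lie elsewhere in the gene cannot serve as a check. Between 51.0% and 58.7% of spots were well above background in a channel, and 0 were saturated. The correlation of ratios across genes was 0.66 and 0.48 for the array pairs of like orientation, and 0.071 to 0.19 for pairs of unlike orientation; genes are not independent replicates. All 12 hepatocyte markers of a fixed list, Alb and Ttr among them, were measured.

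The probes decide what each gene's value means, so the first 30 bases of the 60-base probes of the ammonium and glutamate genes are shown, 5′ to 3′ on the gene's strand. Positions are mm9, as given with the arrays, and cover the whole probe; the arrays place each in an annotated transcript, and whether it is coding or untranslated was not analysed here. The 3 Slc1a2 probes are all shown because they gave different values.

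Glul, chr1:155756765-155756824: cgcttataaatcaacctaacatttataaga
Oat, chr7:139749726-139749785, minus strand: cctgtctcctgaaaggcatatatttcagtt
Rhbg, chr3:88047265-88047324, minus strand: gggagtcagacacccgggcctaattgctgc
Slc1a2, chr2:102617752-102617811: aagcaactctaatcagtgtgtctatgccgc
Slc1a2, chr2:102622252-102622311: gtagaatgtttcagagtttcatgggtgccc
Slc1a2, chr2:102626380-102626439: aacccagtttccagcattcagacatcagta

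The 4 genes of ammonium and glutamate handling did not move one way. Glul encodes glutamine synthetase, which joins ammonium to glutamate and is the classical marker of the last hepatocytes before the central vein. Its log2 ratio was 0.092, -0.056, -0.13 and -0.39 on arrays 1 to 4, above 0 on array 1 and lowest on array 4. The fitted value was -0.12 ± 0.069 (SE, n = 4 arrays), or 0.920-fold, at a limma adjusted p of 0.371. Its 95% interval ran from 0.811-fold to 1.04-fold, so the data do not show whether it differed, and a fall below 0.811-fold lies outside that interval. The levels of the 8 RNAs overlapped, with AAV_Cre between 15.11 and 15.32 and AAV_Null between 15.19 and 15.50 on the normalised log2 intensity scale.

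Oat, ornithine aminotransferase, makes glutamate from ornithine in the same cells. Its log2 ratios were 0.77, 0.22, 0.16 and 0.56, above 0 on all 4 arrays. The fitted value of 0.42 ± 0.12 (SE, n = 4), or 1.34-fold, had an unadjusted p of 0.0190 and an adjusted p of 0.142 in limma. The largest ratio came from array 1, where the AAV_Null RNA had a level of 13.18 against 14.06 to 14.22 in the other AAV_Null RNAs. The AAV_Cre levels were 13.94, 14.43, 14.33 and 14.62, so the groups overlapped. Without array 1 the log2 ratio was 0.29, at a limma adjusted p of 0.367, in a fit that called 13 of 16010 genes.

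Rhbg, an ammonium channel of the Rhesus family, went the other way. Its log2 ratios were -0.17, -0.66, -0.24 and -0.44, below 0 on all 4 arrays. The fitted value was -0.38 ± 0.10 (SE, n = 4), or 0.769-fold, with an unadjusted p of 0.0143 and an adjusted p of 0.127 in limma. AAV_Cre levels lay between 8.74 and 8.98 and AAV_Null levels between 8.98 and 9.53, and the highest of the first was just above the lowest of the second. Array 2 held the largest difference. Without it the log2 ratio was -0.26 at a limma adjusted p of 0.361, in a fit that called 0 of 15823 genes.

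Oat and Rhbg were the members whose call depended on the model. When the channels were fitted separately, with the array as a correlated block, Oat passed at an adjusted p of 0.0433 and Rhbg at 0.0153. That fit called 16% of all genes. Of the other alternatives none called a member, and over all 17 the adjusted p of Oat ran from 0.0433 to 0.367 and that of Rhbg from 0.0153 to 0.361.

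Slc1a2 encodes GLT-1, a glutamate carrier that pericentral hepatocytes share with astrocytes. The bright probe, at base 1615 of its RefSeq transcript, had log2 ratios of 0.17, -0.23, -0.26 and -0.34, above 0 on array 1 and below 0 on the other arrays. Its fitted value was -0.17 ± 0.082 (SE, n = 4), or 0.891-fold, at a limma adjusted p of 0.313. The other probes belong to another RefSeq transcript of the gene and were much closer to background, with mean log2 intensities of 7.72 and 7.94. The probe at base 2881 was below 0 on all 4 arrays, with a fitted value of -0.22 ± 0.068 (SE, n = 4) and a limma adjusted p over 20337 probes of 0.165. The probe at base 7009 had 0.020 ± 0.095 (SE, n = 4), with arrays 1 and 3 above 0 and arrays 2 and 4 below it.

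**Figure D2:**
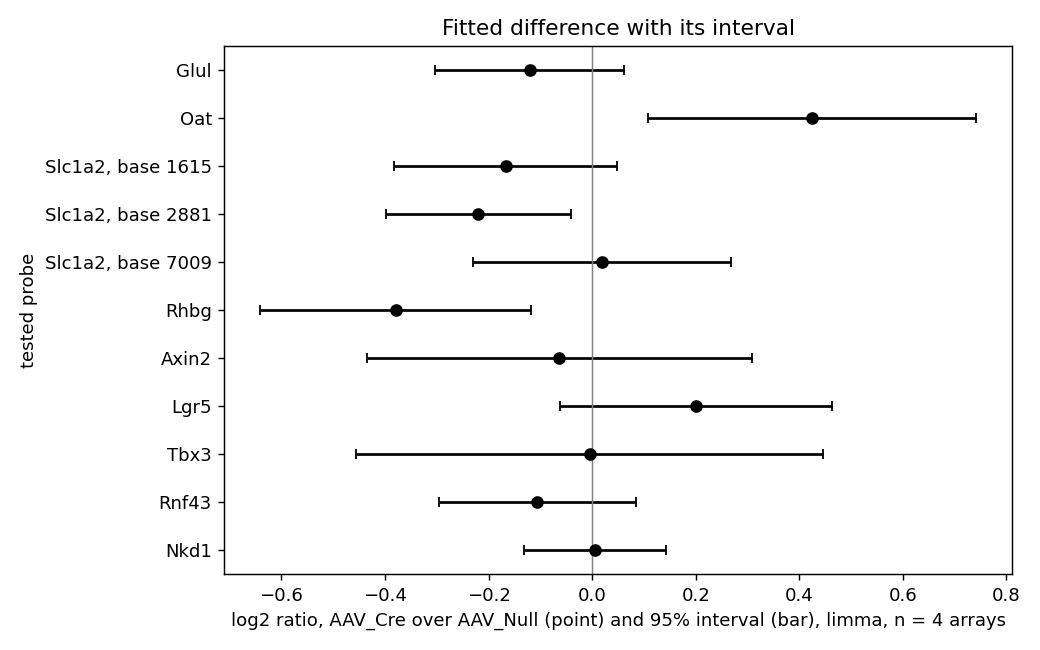
Fitted log2 ratio of AAV_Cre over AAV_Null (horizontal axis, points) with its 95% interval (bars) from limma over 4 arrays for each tested probe (vertical axis). The interval holds 0 for 7 of the 9 genes, and lies above 0 for Oat (0.11 to 0.74) and below 0 for Rhbg (-0.64 to -0.12), before any adjustment for the number of genes.

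No feedback gene of the pathway was called, and their ratios on single arrays lay on both sides of 0. Axin2 encodes a scaffold of the complex that destroys β-catenin and is the standard readout of canonical Wnt signalling. Its brighter probe (chr11:108812034-108812093) had log2 ratios of 0.27, 0.23, -0.79 and 0.026, with array 3 the only one below 0. The fitted value was -0.064 ± 0.14 (SE, n = 4), with a 95% interval from 0.739-fold to 1.24-fold and a limma adjusted p of 0.823. Without array 3 the log2 ratio turned to 0.14. A second Axin2 probe was well above background in 0 of 4 AAV_Cre channels and 1 of 4 AAV_Null channels and was not tested.

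Rnf43 and Znrf3 are related membrane ubiquitin ligases that remove Frizzled receptors from the cell surface. Rnf43 (chr11:87548958-87549017) had log2 ratios of 0.15, 0.093, -0.49 and -0.17, positive on the first pair of arrays and negative on the second. Its fitted value was -0.11 ± 0.073 (SE, n = 4), with adjusted p 0.446 in limma. Znrf3 (chr11:5180918-5180977, minus strand) was well above background in 1 of 4 AAV_Cre channels and 2 of 4 AAV_Null channels. Its ratios of 0.032, -0.95, -0.13 and 0.66 come from a probe near background, and no difference was tested.

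Nkd1 binds Dishevelled and dampens Wnt signalling. Its brighter probe (chr8:91116160-91116219) had log2 ratios of 0.28, 0.40, -0.35 and -0.31, so the sign followed the dye orientation. The treatment value was 0.0057 ± 0.052 (SE, n = 4), and its 95% interval ran from 0.913-fold to 1.1-fold, with adjusted p 0.960 in limma. The term for dye orientation was 0.34 at a limma adjusted p of 0.0552, the smallest of the 9 members, where 2.68% of all genes had a term past 0.05. That term cannot separate a dye bias from a difference between the RNA pairs on arrays 1 and 2 and those on arrays 3 and 4, and the treatment SE does not hold it. It was above 0 for 8 of the 9 members, and for 40.4% of all genes.

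Lgr5, a receptor for R-spondins, had log2 ratios of 0.23, 0.68, 0.087 and -0.20 on its brighter probe (chr10:114887403-114887462, minus strand). Array 2 was the highest and array 4 the only one below 0, and the fitted value was 0.20 ± 0.10 (SE, n = 4), with adjusted p 0.318 in limma. Second probes of Lgr5 and of Nkd1 were well above background in 0 of 8 channels. Tbx3, a T-box repressor downstream of β-catenin in liver, had 0.067, -0.057, -0.51 and 0.49 (chr5:120134511-120134570). Arrays 3 and 4 pointed opposite ways, and the fitted value was -0.0042 ± 0.17 (SE, n = 4) with a 95% interval from 0.729-fold to 1.36-fold.

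The levels of the single RNAs lie behind these ratios. Axin2, Rnf43, Nkd1, Lgr5 and Tbx3, 5 of the 9 tested members, had their highest AAV_Null level on array 3, and 24.8% of all genes did. The grouping was made after the values were seen, and no test was run on it. Against the AAV_Null RNA of array 4, which carried the same dye, the array 3 RNA was higher by 0.86 on the log2 scale for Axin2, 0.75 for Tbx3, 0.41 for Lgr5, 0.33 for Rnf43 and 0.28 for Nkd1. The median difference of all genes was 0.014, and Axin2 and Tbx3 lay at percentiles 99.3 and 98.8 of all genes. Lgr5, Rnf43 and Nkd1 were less far out, at percentiles 92.1, 88.5 and 84.8. Glul at -0.052, Slc1a2 at 0.063, Oat at 0.11 and Rhbg at -0.35 were lower.

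Sp5, a transcription factor gene directly downstream of β-catenin and no member of the set, was named after its values were seen. It too had its highest AAV_Null level on array 3. Its AAV_Null levels were 8.64, 9.04, 9.39 and 8.52 on arrays 1 to 4, and the difference between arrays 3 and 4 was 0.86. Its log2 ratio was -1.0 on array 3 against -0.18, -0.32 and -0.083 on the others, and it did not pass. Over the 14 measured Wnt antagonists and other targets of a fixed list, array 3 did not stand apart. Their median log2 ratios were 0.031, 0.18, -0.052 and -0.089 on arrays 1 to 4. Lgr5 and Nkd1 also had their highest AAV_Cre level on array 3. For Axin2, Rnf43, Tbx3 and Sp5 the AAV_Cre RNA of array 3, on the same spots, was not high in the same way. Against the AAV_Cre RNA of array 4 it differed by 0.051 for Axin2, 0.0084 for Rnf43, -0.25 for Tbx3 and -0.058 for Sp5, while Lgr5 was higher by 0.69 and Nkd1 by 0.24.

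Both RNAs of array 1 were low against those of array 2 for several of the same genes. Against the AAV_Null RNA of array 2, also in Cy3, it was lower by 0.40 on the log2 scale for Axin2, by 0.41 for Rnf43, by 0.40 for Tbx3 and by 0.20 for Lgr5. Nkd1 differed by -0.070, and the median over all genes was -0.027. In the AAV_Cre RNAs of the same arrays, both in Cy5, array 1 minus array 2 was -0.36 for Axin2, -0.36 for Rnf43, -0.28 for Tbx3, -0.65 for Lgr5 and -0.19 for Nkd1, with a median over all genes of -0.026. Array 1 was therefore lower than array 2 under both treatments for Axin2, Rnf43, Tbx3 and Lgr5. This does not make array 1 low against all arrays. The Axin2 level in AAV_Cre was 8.90 on array 1, against 9.26, 8.65 and 8.60 on arrays 2 to 4. The ammonium and glutamate genes differed between the AAV_Null RNAs by -0.099 for Glul, -0.39 for Slc1a2, -0.38 for Rhbg and -1.04 for Oat. Between the AAV_Cre RNAs the values were 0.048, 0.0050, 0.11 and -0.49 in the same order, so Oat alone of the 4 was lower on array 1 under both treatments.

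**Figure D3:**
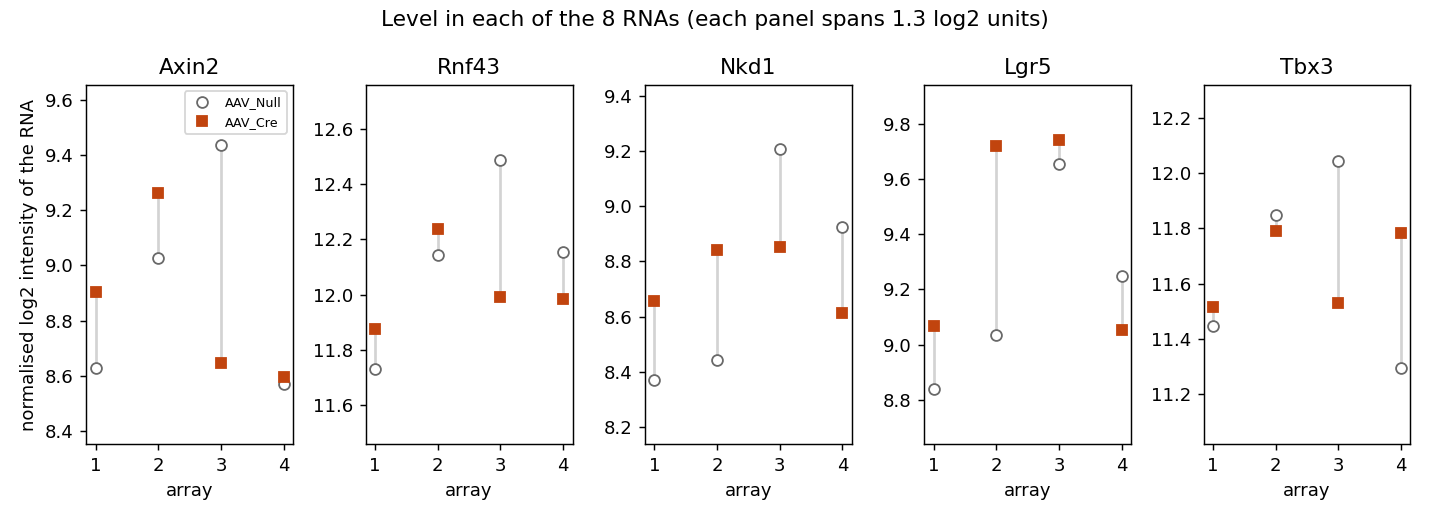
Normalised log2 intensity (vertical axis) of Axin2, Rnf43, Nkd1, Lgr5 and Tbx3 in each of the 8 RNAs, by array (horizontal axis), with open circles for RNA labelled AAV_Null, filled squares for RNA labelled AAV_Cre and grey lines joining RNAs of 1 array. In every panel the highest open circle is that of array 3, between 9.21 for Nkd1 and 12.49 for Rnf43, and the treatments overlap.

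For the signals upstream of these genes no call was made. In this and the following lists, each called gene lost its call with any 1 array left out. Those fits called 0 to 37 genes of all those tested and 0 list genes, so a lost call there says little about a gene. Without the dye term 3 list genes were called higher and 0 lower. Of 39 Wnt ligands, R-spondins and receptors on a fixed list, 18 were measured and 0 were called in limma. An unadjusted p under 0.05 was held by 7 of them, and by 22.6% of all genes. Rspo3, the main R-spondin of the central vein, had 0.41, 0.48, -0.18 and 0.35 on arrays 1 to 4 (0.27 ± 0.10, SE, n = 4; limma adjusted p = 0.219). Wnt2 was near background, with signs that split by dye orientation (-0.48, -0.57, 0.22 and 0.72). Wnt5b had the smallest p of the list, with 0.37 ± 0.065 (SE, n = 4), adjusted p 0.0656 in limma. The separate-channel fit called 1 higher and 1 lower of 17 in this list.

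Inside the cell, 1 of 25 measured pathway genes was called, where 2.76% of all genes were. At an unadjusted p under 0.05 limma had 4 of the 25, where 22.6% of all genes passed that mark. Tle3, a Groucho-type corepressor that TCF factors can recruit, had log2 ratios of 0.38, 0.42, 0.39 and 0.32 and rose by 0.38 ± 0.050 (SE, n = 4), at a limma adjusted p of 0.0411. Ctnnb1, which encodes β-catenin, had -0.097 ± 0.069 (SE, n = 4; limma adjusted p = 0.460). Among 14 measured antagonists and other target genes 0 were called in limma, and 3 had an unadjusted p under 0.05. Tnfrsf19 had the smallest p there, with 0.31 ± 0.053 (SE, n = 4), adjusted p 0.0628 in limma, and the separate-channel fit called 2 higher of 13.

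Among 26 measured genes of glutamine, glutamate and ammonium handling, 2 rose and 0 fell in RNA labelled AAV_Cre. Of all genes, 1.78% were called higher and 0.976% lower. At an unadjusted p under 0.05 limma had 7 higher and 4 lower, where 22.6% of all genes passed that mark. The separate-channel fit called 4 higher and 2 lower of 24, and 16% of all genes. Without the dye term 1 of the list was called higher and 0 lower. Slc1a5, a carrier of neutral amino acids including glutamine, had 0.56, 0.51, 0.70 and 0.76 and rose by 0.63 ± 0.050 (SE, n = 4; limma adjusted p = 0.0206). Gpt2, a mitochondrial alanine aminotransferase, rose by 0.56 ± 0.070 (SE, n = 4; adjusted p = 0.0373), with 0.22 and 0.14 on arrays 1 and 2 and 1.1 and 0.80 on arrays 3 and 4. Gls2, the periportal glutaminase that opposes Glul, had -0.39 ± 0.15 at an adjusted p of 0.219.

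Other pericentral genes changed in both directions. Of 31 measured in RNA labelled AAV_Cre, 2 rose, 3 fell and 26 did not pass, against 1.78% of all genes called higher and 0.976% called lower. At an unadjusted p under 0.05 limma had 7 higher and 10 lower, where 22.6% of all genes passed that mark. The separate-channel fit called 5 higher and 9 lower, and 16% of all genes. Mgst1, a microsomal glutathione transferase, rose by 0.64 ± 0.085 (SE, n = 4; limma adjusted p = 0.0415) and Nr1i2, the xenobiotic receptor PXR, by 0.49 ± 0.072 (adjusted p = 0.0498). Cyp2c29, a cytochrome P450, fell by 0.43 ± 0.049 (adjusted p = 0.0319), and the other genes that fell were its relatives Cyp2c54 and Cyp2c37. These cytochrome genes are close copies, and probe signals may be shared among them. The 2 genes most used to mark the pericentral zone after Glul, Cyp2e1 and Cyp1a2, had -0.28 ± 0.057 and 0.39 ± 0.075 (SE, n = 4), with limma adjusted p of 0.0872 and 0.0803. The ratio of Cyp2e1 was 0.16 and 0.33 on the first pair of arrays and -0.85 and -0.77 on the second.

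Of 27 measured periportal genes, the opposite zone, 0 rose and 2 fell, against the same 1.78% of all genes called higher and 0.976% called lower. At an unadjusted p under 0.05 limma had 15 of the 27, 3 higher and 12 lower, where 22.6% of all genes passed that mark. The separate-channel fit called 2 higher and 9 lower of 26. The genes that fell in limma were the serine dehydratases Sds, by 0.51 ± 0.068 (SE, n = 4; limma adjusted p = 0.0415), and Sdsl, by 0.50 ± 0.065 (adjusted p = 0.0394). The periportal median was -0.16 and that of the other pericentral genes -0.036. With median centring in place of loess these medians were -0.038 and -0.011, and with the scanner software's processed signals -0.14 and -0.016. Under either choice 6 periportal genes were lower at a limma unadjusted p under 0.05, in place of 12. Other choices kept the count or came near it. It was 12 without background correction and in the log2 values deposited by the authors, with periportal medians of -0.17 and -0.15. With an intensity trend and robust variance it was 10. Some periportal genes, such as Arg1 and Gls2, are also in the ammonium list.

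**Figure D4:**
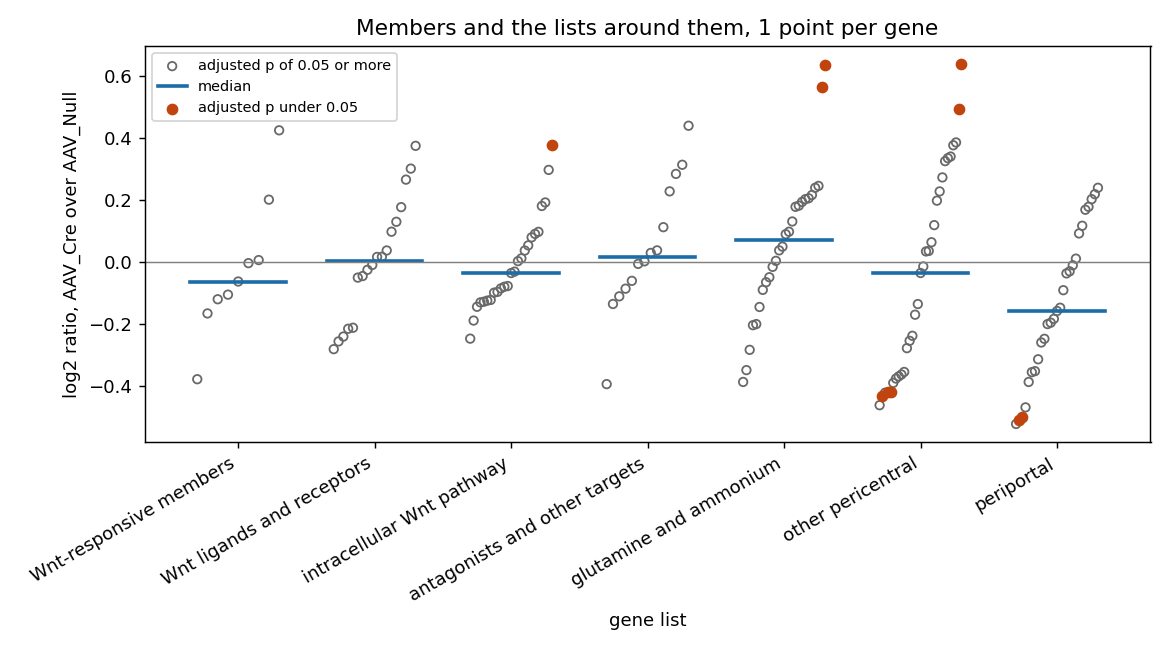
Log2 ratio of AAV_Cre over AAV_Null (vertical axis) of each gene in 7 lists (horizontal axis), with called genes filled and the list median as a bar. The 9 members lie between -0.38 and 0.42 with none called, and the called genes of other lists have ratios between 0.38 and 0.64 in size.

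Markers of other liver cells give the setting for these ratios. Of 8 measured markers of central vein endothelium, the source of the ligands, 0 were called in limma, 2 had an unadjusted p under 0.05, and Kit had the smallest p (-0.29 ± 0.054, SE, n = 4; adjusted p = 0.0739). Of 12 sinusoidal endothelial markers 0 were called in limma. An unadjusted p under 0.05 was held by 9, 1 higher and 8 lower, and by 22.6% of all genes. The separate-channel fit called 1 higher and 6 lower of 12, and 16% of all genes. Clec4g had -0.35 at a limma adjusted p of 0.0628. The median of the sinusoidal list was 0.062, -0.026, -0.39 and -0.45 on arrays 1 to 4, near 0 on the first pair of arrays and below 0 on the second. Its summed level ran from 24014 to 27404 in AAV_Cre and from 25125 to 36998 in AAV_Null RNAs, and its part in the members' ratios was not tested. Of 8 stellate markers 1 was called higher in limma, Col3a1 by 0.47, and without the dye term 0 were. At a limma unadjusted p under 0.05, 4 were higher and 0 lower. The median of the stellate list was 0.33, 0.43, 0.082 and 0.21 on arrays 1 to 4, above 0 on each. The separate-channel fit called 4 higher of 8, and 16% of all genes. The part of stellate cells in the members' ratios was not tested. Of 12 hepatocyte markers 1 was called lower, Trf at -0.52, but its ratios were 0.27 and 0.33 on arrays 1 and 2 and -1.18 and -1.51 on arrays 3 and 4, and without the dye term 0 of the list were called. The median of the hepatocyte list was 0.22, 0.28, -0.059 and -0.63 on arrays 1 to 4, above 0 on the first pair and below 0 on the second, as Rnf43 and Nkd1 were. Its summed level ran from 1309030 to 2261245 in AAV_Cre and from 1758202 to 2259026 in AAV_Null RNAs, and its part in the members' ratios was not tested. Among 4 cholangiocyte, 8 macrophage, 7 lymphocyte and 3 erythroid markers 0 were called, and the numbers with an unadjusted p under 0.05 were 1, 1, 1 and 0. Array 3 stood apart for the macrophage list, with medians of -0.33, -0.29, 0.29 and -0.65 on arrays 1 to 4. Without array 3, 7 of 7 macrophage markers were lower at a limma unadjusted p under 0.05, still with 0 called. The median went from -0.24 to -0.48. Cd68, the only marker with a fitted value above 0 (0.053), was not measured in that fit. Without array 4 the median was -0.052, with 1 of 7 lower at that mark. It was -0.28 without array 2 and -0.23 without array 1, with 1 lower at that mark in each fit. The summed level of the macrophage list ran from 28868 to 55444 in AAV_Cre and from 40369 to 63353 in AAV_Null RNAs. Its part in the high feedback gene levels of the array 3 AAV_Null RNA was not tested. Sox9, Marco, Cd79a and Hbb-b2 had the smallest p in these lists, at 0.22, -0.59, 0.14 and -0.33.

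The promoter table of RefSeq (GRCm38.p6) held windows for 6 of the 10 members, 7 windows in all, each of 300 bases. They were searched on both strands for 4 forms of the core that TCF and LEF factors bind, the consensus CTTTGAT, its variant CTTTGAA, the further form CTTTGTT and the last form CTTTGTA. Forms on 1 strand cannot overlap each other, and a window was counted once. Of the 7 windows 1 held a match, that of Slc1a2, and 16.9% of all 32851 windows did. Its 250 bases before the start, at chr2:102706188-102706437 on the plus strand, are shown with the match in capitals, which lies 207 bases before the start and reads as CTTTGAT on the other strand. A match describes these letters and is no binding site, and many Wnt-responsive elements lie outside such windows.

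Slc1a2: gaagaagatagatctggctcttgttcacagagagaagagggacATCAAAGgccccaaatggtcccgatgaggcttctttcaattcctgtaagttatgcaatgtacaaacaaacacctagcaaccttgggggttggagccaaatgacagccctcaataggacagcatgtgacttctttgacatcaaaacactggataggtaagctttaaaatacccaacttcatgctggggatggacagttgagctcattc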

How the data were processed

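The deposited scanner output gives, per the file headers, the mean intensity and local background of every spot in Cy3 and Cy5 (Agilent Feature Extraction, version 11.5.1.1). The scanner software's processed intensity and its log10 ratio were also deposited by the authors. A table of log2 values deposited by the authors names limma in the submitters' processing notes, with no version or steps. Its slope against the scanner log10 ratio was 3.34, 3.33, -3.29 and -3.39 on arrays 1 to 4, so it holds log2 of AAV_Cre over AAV_Null.

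Mean intensities were corrected with normexp (offset 50) and normalised by loess within arrays in limma 3.58.1 under R 4.3.3, with outlier spots left out unless that removed a probe from all 4 arrays. Probes had to be well above background in 3 of 4 channels of either treatment and measured on 3 arrays, which left 20337 probes and 16081 genes, each gene by its probe of highest mean intensity. The model held treatment and dye orientation, with 2 residual and 2.66 prior degrees of freedom at most. The 4 arrays of 1 slide limit the precision, with a median SE of 0.063, and a sign permutation over them cannot go below 0.125. RNA levels were set after Aquantile scaling. The separate-channel alternative used statmod 1.5.0, and the fit was tested on simulated data. Figures used matplotlib 3.10.9. The 2 labelling procedures in the labels, of which 1 took 200 ng of RNA, were not told apart.

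Members and lists were chosen with earlier results of these data known. Named genes were the members, Trib1 and, per list, up to 3 called genes of largest change or the gene of smallest p. Rspo3, Wnt2, Ctnnb1, Gls2, Sp5, Cyp2c54, Cyp2c37, Cyp2e1 and Cyp1a2 were named after their values were seen. Since no member was called, no genes of like pattern were named.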

Additional observations from a re-analysis of the deposited data

Results flagged for a closer look

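Among 44 tested values (member probes, named genes and list medians over the 4 arrays), 1 had an array far from the others, where chance gives about 2.2. Mgst1 had a log2 ratio of 0.96 on array 2 against 0.51 to 0.55 on the other arrays.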

How the results depend on the processing

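Over 17 alternatives the 9 members kept a count of 0 called, except in the separate-channel fit, which called 1 higher (Oat) and 1 lower (Rhbg). The members' median stayed within the spread between arrays, and ran from -0.15 to 0.016 with each array left out. Values near 0 changed sign. Tbx3 turned to 0.016 with the scanner software's processed signals, 0.025 with median centring, 0.0010 in the authors' deposited table and, with each array left out, ran from -0.25 to 0.25. Nkd1 turned to -0.010 without background correction, -0.0095 in the authors' deposited table and between -0.023 and 0.035 with each array left out. Axin2 ran from -0.27 to 0.14 with each array left out, above 0 without array 3. Trib1 ran from 0.85 to 1.03 and lost its call each time.

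The count of 444 called genes was 270 with no dye effect, 777 with processed signals, 1403 without background correction, 756 with median centring, 1468 with an intensity trend and robust variance, 1371 in the authors' deposited table, 2522 in the separate-channel fit and 1287 at an adjusted p of 0.10. It ran from 0 to 37 with each array left out. In the same order, 6 genes higher in the fixed lists became 3, 12, 18, 9, 17, 18, 20 and 14, and 6 lower became 0, 4, 24, 4, 26, 22, 32 and 22. Without a filter on dim probes they were 3 and 1, and with all 8 channels above background 8 and 11. They were 0 with each array left out, so those fits say little about the members. The cause of these changes was not tested. Each ratio already pairs the 2 RNAs of an array, and no further pairing was possible because all arrays form 1 group with 1 replicate number each. Znrf3 and the second probes of Axin2, Lgr5 and Nkd1 were too dim to show a difference.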
